A study of Mus musculus with 10 samples.

Results

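The genes described here are 9 receptors and hormone-sensing genes of the mammary luminal lineage, chosen by name from a list, though with earlier results of these data known: the steroid receptors Esr1 and Pgr, the prolactin receptor Prlr, the paracrine factor Tnfsf11, the transcriptional regulators Cited1, Greb1 and Tbx3, and the surface proteins Ly6a and Prom1. All 9 were found by symbol among the 57010 Ensembl genes of the deposited count table, and all 9 passed the low-count filter. Bulk poly(A) RNA was sequenced from whole, untreated mammary tumours of MMTV-PyMT mice, collected 5 weeks after tumour onset. The series compared 5 tumours with the genotype PyMT; RHBDL4 -/- (KO) with 5 tumours with the genotype PyMT; RHBDL4 +/+ (WT), so every tumour of both groups carries the PyMT transgene. In this model the mouse mammary tumour virus promoter drives polyoma middle T mainly in mammary epithelium. The sources used here do not give the age or strain of the mice, or whether RHBDL4, a rhomboid protease of the endoplasmic reticulum, is lost in all cells or in some. They also do not say which tumours came from the same animal, and each p-value therefore measures only how these samples differ, part of it perhaps technical.

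In the normal mammary gland, oestrogen, progesterone and prolactin are sensed by a minority of luminal cells, the hormone-sensing or mature luminal cells. These cells hold the receptors and pass the signal to neighbouring cells through secreted or membrane-bound factors such as RANKL, the protein of Tnfsf11. The prolactin receptor is also made by alveolar luminal cells, where it signals through JAK2 and STAT5 to milk genes. PyMT tumours of the mouse are known to lose oestrogen and progesterone receptor as they progress.

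Promoter sequences, from 250 bases before to 50 bases after each annotated start, were found for 7 of the 9 genes (14 windows) in RefSeq, build GRCm38.p6. The other 2 are Tbx3 and Ly6a. The palindromic oestrogen response element GGTCANNNTGACC was in 0 of the 14 windows, against 0.07% of all 32851 windows. The element bound by progesterone and glucocorticoid receptors, GNACANNNTGTNC, was also in 0 of the 14, against 0.475% of all windows. The STAT5 site TTCNNNGAA was in 2 of the 14 windows, against 8.3% of all windows. Each of these 3 motifs reads the same on both strands. The STAT5 matches lie in 1 window of Esr1 (chr10:4709960-4709988, plus strand) and in 1 window of Prlr (chr15:10223786-10223814, plus strand). They are shown because STAT5 carries the signal of the prolactin receptor, with the motif in capitals.
Esr1: ctggagtttcTTCTAGGAAtgctgattct
Prlr: gcaaaatgagTTCTAGGAAtaagggatat
Both sites carry the same 9 bases. A match describes these letters only, and no binding was measured.

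Libraries held 25.7 to 43.3 M (mega) counts. Levels are given as CPM, the counts per M counts of library size after TMM scaling over all 10 libraries, a scaling that sets the bulk of genes level between libraries. Rhbdd1, the gene of RHBDL4, stood at 22.3, 15.1, 17.3, 13.2 and 16.8 CPM in KO replicates 1 to 5, against 45.4, 38.6, 33.7, 33.5 and 25.02 CPM in WT replicates 1 to 5, so every KO library lay below every WT library (log2 fold change, KO over WT, -1.05 ± 0.20 with all 10 libraries and -1.14 ± 0.16 without WT replicate 5, SE, edgeR adjusted p = 0.669 and 0.113). DESeq2 called it in both comparisons (adjusted p = 0.0003092 and 7.44e-07), as did limma-voom (adjusted p = 0.0360 and 0.0249). The labels do not give the deleted part of the gene. WT replicate 5 stood apart from the other 9 libraries in its tissue markers. Its 10 luminal epithelial markers summed to 127 CPM, against 4233 to 7566 CPM in the KO libraries and 4619 to 5947 CPM in WT replicates 1 to 4, and all 10 were lower than in every other library. All 8 skeletal muscle markers and all 8 adipocyte markers were higher there than in every other library (summed muscle markers 130242 CPM, against at most 1429 CPM elsewhere). Its TMM factor was 0.588, against 1.007 to 1.101 in the others, which raises its CPM values. WT replicate 1 differed in another way, with 8 fibroblast markers summing to 156 CPM, against 1421 to 6926 CPM in the other 8 libraries, and 6 neutrophil markers summing to 1264 CPM, against 20.04 to 313 CPM in those 8. The comparison of KO with WT is given with and without WT replicate 5.

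**Figure D1:**
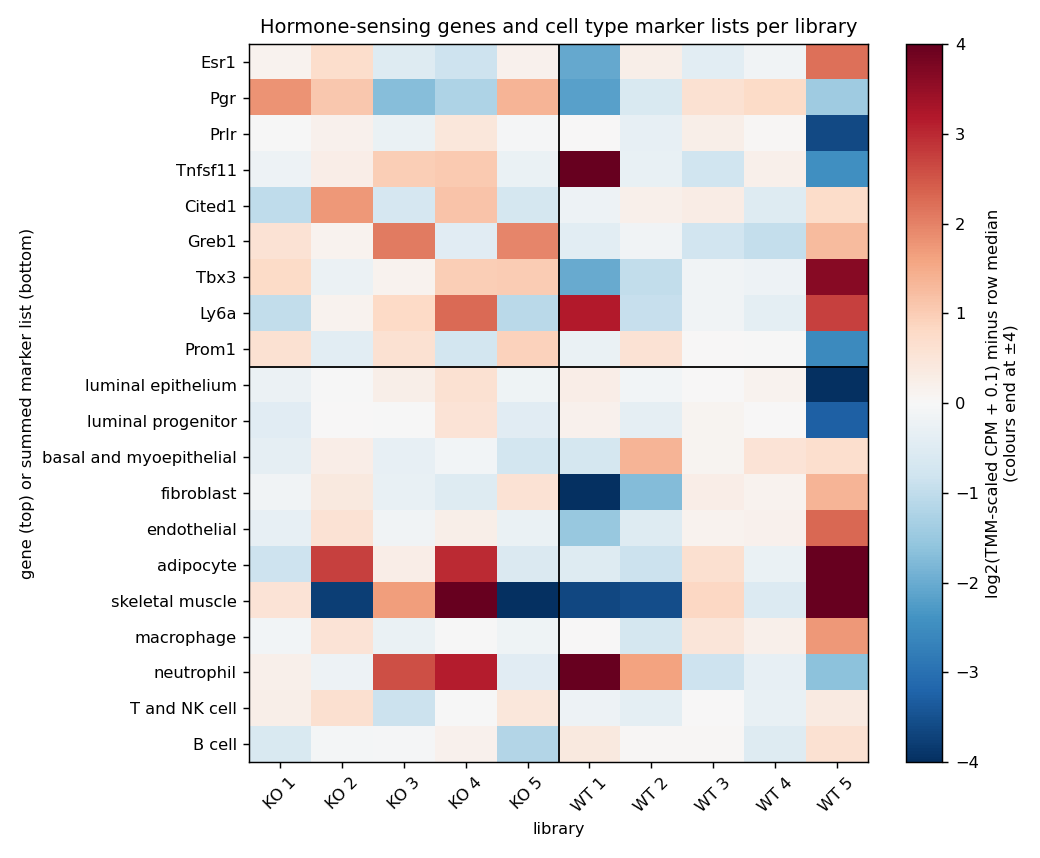
Level of each hormone-sensing gene (top) and summed level of each cell type marker list (bottom) in each library, as log2 of TMM-scaled CPM plus 0.1 minus the median of the row, with colours ending at 4 in either direction. WT 5 is low in luminal markers, Prlr and Prom1 and high in muscle and adipocyte markers, Esr1 and Tbx3; WT 1 is high in Tnfsf11, Ly6a and neutrophil markers and low in fibroblast markers.

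None of the 9 genes passed the test between KO and WT tumours, with or without WT replicate 5 (edgeR quasi-likelihood F-test, Benjamini-Hochberg adjusted p under 0.05). With all 10 libraries the test called 0 of 18577 genes (0%), DESeq2 called 54 and limma-voom 17. At an unadjusted p under 0.05 were 1301 genes (7%; 2.56% higher and 4.44% lower in KO) and 0 of the 9. Without WT replicate 5 edgeR called 2 of 19016 genes (0.0105%), DESeq2 463 and limma-voom 142, with 2204 (11.6%) at an edgeR unadjusted p under 0.05. Of the 9 genes, 2 were under that unadjusted value without WT replicate 5, Greb1 and Tbx3, both higher in KO, where 5.74% of all genes were higher and 5.85% lower at that value. The KO and WT libraries overlapped for all 9 genes, whereas they did not overlap for 1.99% of all genes with all 10 libraries (KO above in 0.807%, below in 1.18%) and for 5.62% without WT replicate 5 (KO above in 1.76%, below in 3.87%). Without WT replicate 5, 7 of the 9 genes had a positive log2 fold change (KO over WT), with a median of 0.43, against 53.2% of all genes and a median of 0.03. With all 10 libraries, 5 of the 9 were positive with a median of 0.37, against 43.8% of all genes and a median of -0.06. The 2 comparisons share 9 libraries.

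**Figure D2:**
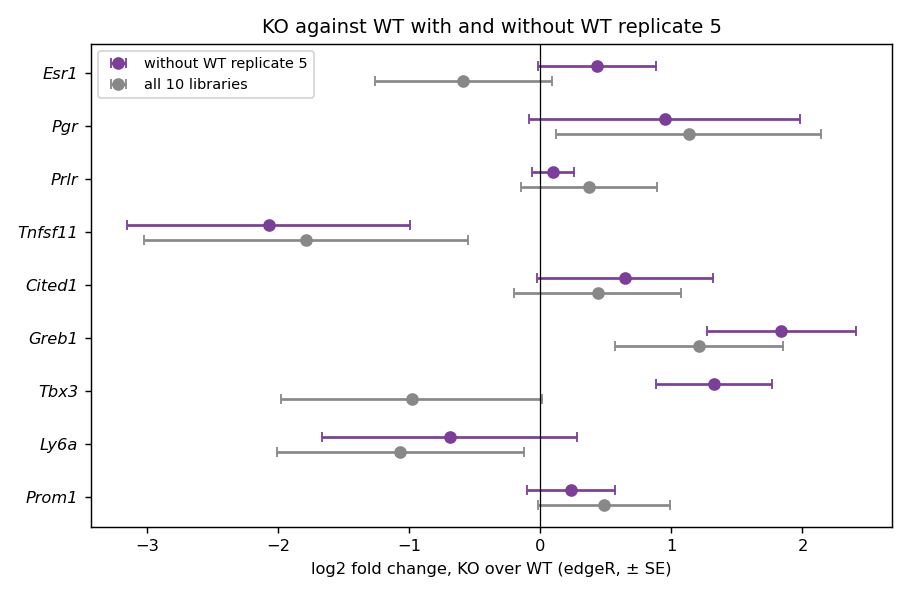
Log2 fold change of each hormone-sensing gene, KO over WT, with its standard error from edgeR, without WT replicate 5 (purple, upper point of each pair) and with all 10 libraries (grey, lower point). The estimates for Esr1 and Tbx3 lie on opposite sides of 0 in the 2 fits, and none of the 9 genes was called in either.

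Levels of different genes can be compared only per length of transcript. Over the 9 libraries without WT replicate 5, and per kb of merged exons in a GENCODE annotation of GRCm38 (the submitters' processing notes name GRCm39 for the counts), the median level was 34.1 CPM per kb for Ly6a, 11.99 CPM per kb for Prom1 and 6.69 CPM per kb for Prlr. Esr1 followed at 0.842 CPM per kb, Tbx3 at 0.509, Cited1 at 0.309, Tnfsf11 at 0.236, Greb1 at 0.124 and Pgr at 0.0678 CPM per kb. Prlr, at 5.26 to 9.14 CPM per kb, did not overlap with Esr1, at 0.216 to 1.501 CPM per kb. Every other pair of neighbours in this order overlapped between libraries. Merged exons count every isoform, so a gene with exons outside its main transcript is set lower on this scale than by the length of that transcript alone. Prlr and Esr1 had the longest merged exons, at 15.3 and 13.7 kb.

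Esr1 (ENSMUSG00000019768) encodes oestrogen receptor alpha, the receptor through which oestrogen drives duct growth. It stood at 13.9, 20.5, 8.75, 7.02 and 14.3 CPM in KO replicates 1 to 5, against 2.96, 14.9, 9.34, 11.5 and 58.4 CPM in WT replicates 1 to 5. WT replicate 5 was the highest library and WT replicate 1 the lowest, with all 5 KO libraries between them. Means were 12.9 ± 5.30 CPM in KO (SD, n = 5) and 9.69 ± 5.05 CPM in WT replicates 1 to 4 (SD, n = 4). The log2 fold change was 0.43 ± 0.45 (SE) without WT replicate 5 (edgeR adjusted p = 0.734). With that library it was -0.59 ± 0.67 (edgeR adjusted p = 0.796), so 1 library sets the sign. Luminal markers were 127 CPM in that library, so its 875 Esr1 counts came with few luminal counts. In such bulk tissue, fewer cells of a type and less RNA per cell cannot be told apart. Fibroblast and adipocyte markers, cell types in which oestrogen receptor is also known, summed there to 12045 and 13034 CPM, against 156 to 6926 and 153 to 2175 CPM in the other 9 libraries. Their part in the Esr1 level was not tested.

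Pgr (ENSMUSG00000031870) encodes the progesterone receptor, a classical oestrogen target and the lowest of the 9 genes per length. It stood at 1.44, 0.837, 0.0363, 0.0904 and 1.05 CPM in KO replicates 1 to 5, which is 54, 27, 1, 3 and 39 counts. In WT replicates 1 to 5 it had 0, 8, 27, 24 and 1 counts, or 0, 0.194, 0.579, 0.665 and 0.0667 CPM. The 0 counts of WT replicate 1 allow a level of up to 0.0905 CPM (3 counts, counting error only). KO libraries formed a high trio (replicates 1, 2 and 5) and a low pair (replicates 3 and 4). That low pair shares the leading number of its library names (990), whose meaning the labels leave unstated. WT replicates 1 and 2 also share a leading number (968), as do WT replicates 3 and 4 (1061). On the log2 scale KO over WT was 0.95 ± 1.03 without WT replicate 5 (edgeR adjusted p = 0.748) and 1.13 ± 1.01 with it (edgeR adjusted p = 0.748), so the errors are about as large as the estimates. Among the 9 libraries without WT replicate 5, the 3 with the least Esr1 (WT replicate 1 and KO replicates 3 and 4) were also the 3 with the least Pgr. WT replicate 5 had the most Esr1 of all 10 libraries and 1 Pgr count.

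**Figure D3:**
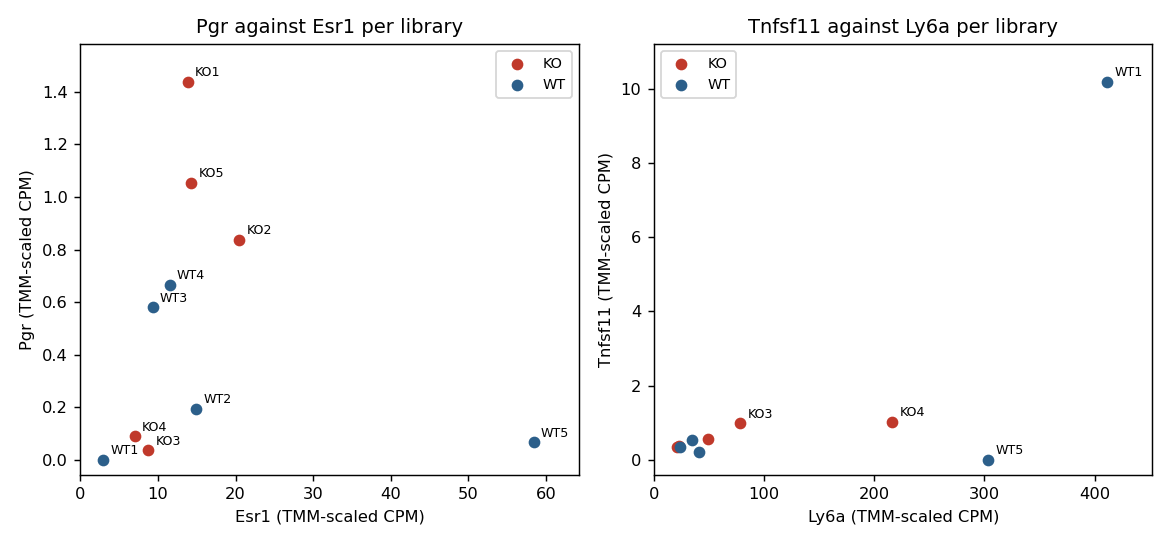
Left, Pgr against Esr1, and right, Tnfsf11 against Ly6a, each point 1 library in TMM-scaled CPM (KO red, WT blue; on the right, only libraries above 60 CPM of Ly6a are named). On the left WT5 has the highest Esr1 at 58.4 CPM with Pgr at 0.0667 CPM; on the right WT1 is highest on both axes.

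For Esr1, 13369 genes with a mean of 1 CPM or more over all 10 libraries were ranked by likeness across the 9 libraries without WT replicate 5. Those most like Esr1 were Syne1 (Pearson r = 0.965, Spearman's rho = 0.867), Sema5a (r = 0.964, rho = 0.867), Olfr78 (r = 0.963, rho = 0.967), Robo2 (r = 0.962, rho = 0.9) and Pgm5 (r = 0.96, rho = 0.9), on log2 CPM. Those most like Pgr were Mtch1 (r = 0.967, rho = 0.967), Zfp820 (r = 0.956, rho = 0.933), Frmd4b (r = 0.956, rho = 0.933), Ehd3 (r = 0.954, rho = 0.967) and Mknk1 (r = 0.949, rho = 0.9). No gene is on both lists. These values describe the nearest genes in a search over all genes and carry no test, and points share libraries, depth and leading numbers.

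Prlr (ENSMUSG00000005268) encodes the prolactin receptor and was the steadiest of the 9 genes outside WT replicate 5. It stood at 102, 115, 85.6, 140 and 98.4 CPM in KO replicates 1 to 5, against 103, 80.6, 121, 106 and 8.27 CPM in WT replicates 1 to 5. Its highest library was 1.74 times its lowest among the 9 libraries without WT replicate 5, where the same ratio was 6.94 for Esr1. Means were 108 ± 20.7 CPM in KO (SD, n = 5) and 102 ± 16.5 CPM in WT replicates 1 to 4 (SD, n = 4), and the log2 ratio of KO over WT was 0.10 ± 0.16 (SE, edgeR adjusted p = 0.846). With WT replicate 5 it was 0.37 ± 0.52 (edgeR adjusted p = 0.830). WT replicate 5 was below every other library for Prlr, as it was for all 10 luminal markers. A gene model that runs through Prlr on the same strand overlaps it in the annotation, so its reads could be split or dropped in counting.

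Tnfsf11 (ENSMUSG00000022015) encodes RANKL, which hormone-sensing cells make under progesterone and which acts on progenitors through the receptor RANK. It stood at 0.373, 0.558, 0.980, 1.02 and 0.352 CPM in KO replicates 1 to 5, or 14, 18, 27, 34 and 13 counts. WT replicates 2 to 4 held 0.340, 0.215 and 0.527 CPM, WT replicate 1 held 10.2 CPM (338 counts), and WT replicate 5 held 0 counts, which allows up to 0.2002 CPM. WT replicate 1 alone was 22.7 times the median of the other 8 libraries without WT replicate 5. The log2 fold change of -2.07 ± 1.08 without WT replicate 5 (edgeR adjusted p = 0.495) became 0.88 when WT replicate 1 was also left out (edgeR adjusted p = 0.563). With all 10 libraries it was -1.78 ± 1.24 (edgeR adjusted p = 0.693), and 1.17 when WT replicate 1 was left out of these. In WT replicate 1 Pgr had 0 counts and Esr1 was at its lowest. T and NK cells are another known source of RANKL. Their markers were low throughout, and summed to 5.40 CPM in WT replicate 1, against 3.45 to 9.80 CPM in the other 8 libraries. Neutrophil markers were at their highest and fibroblast markers at their lowest in that library. The part of T and NK cells, neutrophils or fibroblasts in Tnfsf11 was not tested. Tnfrsf11a, which encodes RANK, was also highest in WT replicate 1, at 115 CPM, against 47.7 to 82.5 CPM in the KO libraries and 63.5 to 70.9 CPM in WT replicates 2 to 4.

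Cited1 (ENSMUSG00000051159) encodes a co-activator of oestrogen receptor alpha that marks hormone-sensing cells. It stood at 0.266, 2.39, 0.363, 1.54 and 0.352 CPM in KO replicates 1 to 5, against 0.543, 0.753, 0.816, 0.416 and 1.134 CPM in WT replicates 1 to 5. KO replicates 2 and 4 were the highest and the other 3 KO libraries the lowest of all 10, so the WT libraries lay inside the KO range. KO over WT came to 0.65 ± 0.67 on the log2 scale without WT replicate 5 (edgeR adjusted p = 0.733) and to 0.44 ± 0.64 with it (edgeR adjusted p = 0.838). Without KO replicate 2 the estimate was -0.20 among the libraries that include WT replicate 5. KO replicates 2 and 4 were also the KO libraries with the most adipocyte marker counts (1832 and 2175 CPM, against 155 to 330 CPM in the other 3). WT replicate 5 had the most adipocyte marker counts of all 10 libraries (13034 CPM). Its Cited1, at 1.134 CPM, was the highest of the WT libraries but below KO replicates 2 and 4. The part of adipocytes in Cited1 was not tested.

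Greb1 (ENSMUSG00000036523) encodes an early target and cofactor of oestrogen receptor in human breast cancer cells. It stood at 2.02, 1.46, 5.84, 0.934 and 5.35 CPM in KO replicates 1 to 5, against 0.965, 1.19, 0.730, 0.638 and 3.34 CPM in WT replicates 1 to 5. KO replicates 3 and 5 were above every other library, and KO replicate 4 lay within the range of WT replicates 1 to 4. Means were 3.12 ± 2.30 CPM in KO (SD, n = 5) and 0.881 ± 0.248 CPM in WT replicates 1 to 4 (SD, n = 4). The log2 fold change of 1.84 ± 0.57 without WT replicate 5 was not called by edgeR (unadjusted p = 0.00953, adjusted p = 0.317), but it was by DESeq2 on the same libraries (1.84, adjusted p = 0.0417), 1 of the 463 genes that DESeq2 called there out of 19016. Including WT replicate 5 it was 1.21 ± 0.64 (edgeR adjusted p = 0.669). Esr1 was low in KO replicate 3 (8.75 CPM) and mid-range in KO replicate 5 (14.3 CPM). An antisense gene and a microRNA gene overlap Greb1 in the annotation. The libraries were stranded, per the labels, but the strand setting of the counting is not given in the sources used, so reads of antisense partners cannot be told apart from those of Greb1, Tbx3 or Prom1.

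Tbx3 (ENSMUSG00000018604) encodes a T-box repressor needed for mammary bud and duct formation. It stood at 6.42, 3.16, 4.14, 7.47 and 7.73 CPM in KO replicates 1 to 5, against 0.844, 1.85, 3.37, 3.24 and 48.2 CPM in WT replicates 1 to 5. Of the KO libraries, 4 were above all of WT replicates 1 to 4, and KO replicate 2 was just below WT replicates 3 and 4. Means were 5.79 ± 2.04 CPM in KO (SD, n = 5) and 2.33 ± 1.205 CPM in WT replicates 1 to 4 (SD, n = 4). The log2 fold change was 1.33 ± 0.44 without WT replicate 5 (edgeR unadjusted p = 0.0139, adjusted p = 0.330) and -0.98 ± 1.00 with it (edgeR adjusted p = 0.773). The 48.2 CPM of WT replicate 5 was 14.3 times the median of the other 9 libraries. Tbx3 is also made by stromal cells. All 8 fibroblast and all 8 endothelial markers had a positive log2 fold change without WT replicate 5, and none was called. Fibroblast markers summed to 4228, 6155, 3819, 3284 and 6926 CPM in KO replicates 1 to 5 and to 156, 1421, 5603 and 5200 CPM in WT replicates 1 to 4. Of these 9 libraries, WT replicates 1 and 2 were lowest for both Tbx3 and fibroblast markers. Among the KO libraries, replicate 5 was highest for both, but replicate 4 was lowest for fibroblast markers with Tbx3 at 7.47 CPM. KO replicate 2 was lowest of the KO libraries for Tbx3, with fibroblast markers at 6155 CPM. WT replicates 1 and 2 share a leading number. The part of stromal cells in Tbx3 was not tested. The antisense gene Tbx3os1 overlaps Tbx3.

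Ly6a (ENSMUSG00000075602) encodes the surface protein Sca-1, found on hormone-sensing luminal cells and also on endothelial, stromal and activated T cells. It stood at 23.0, 49.5, 78.2, 216 and 21.4 CPM in KO replicates 1 to 5, against 411, 23.8, 41.1, 34.6 and 303 CPM in WT replicates 1 to 5. WT replicates 1 and 5 and KO replicate 4 were the 3 high libraries, and the others lay between 21.4 and 78.2 CPM. For the comparison of KO with WT the log2 fold change was -0.69 ± 0.98 without WT replicate 5 (edgeR adjusted p = 0.810), and 1.24 when WT replicate 1 was also left out (edgeR adjusted p = 0.577). With all 10 libraries it was -1.07 ± 0.94 (edgeR adjusted p = 0.745). Endothelial markers summed to 66.9 CPM in WT replicate 1, below the 133 to 284 CPM of the other 8 libraries, and to 935 CPM in WT replicate 5. The high Ly6a of WT replicate 1 therefore came with the fewest endothelial counts and that of WT replicate 5 with the most, and the part of these cells in Ly6a was not tested. Ly6a has close relatives in the Ly6 cluster, so reads could be shared among them, and its level is uncertain to that extent.

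Prom1 (ENSMUSG00000029086) encodes prominin-1 (CD133), a membrane protein that marks hormone-sensing cells in the mouse gland. It stood at 129, 63.4, 129, 50.8 and 159 CPM in KO replicates 1 to 5, against 70.2, 126.1, 86.0, 82.4 and 14.4 CPM in WT replicates 1 to 5. KO replicates 2 and 4, the 2 highest in Cited1, were the 2 lowest of the KO libraries in Prom1, while the other 3 KO libraries were above all WT libraries. Prom1 had a log2 fold change of 0.24 ± 0.34 without WT replicate 5 (edgeR adjusted p = 0.811) and 0.48 ± 0.50 with it (edgeR adjusted p = 0.775). An antisense gene overlaps Prom1 too, as does a processed transcript on the same strand, so reads of Prom1 could be split or dropped in counting.

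**Figure D4:**
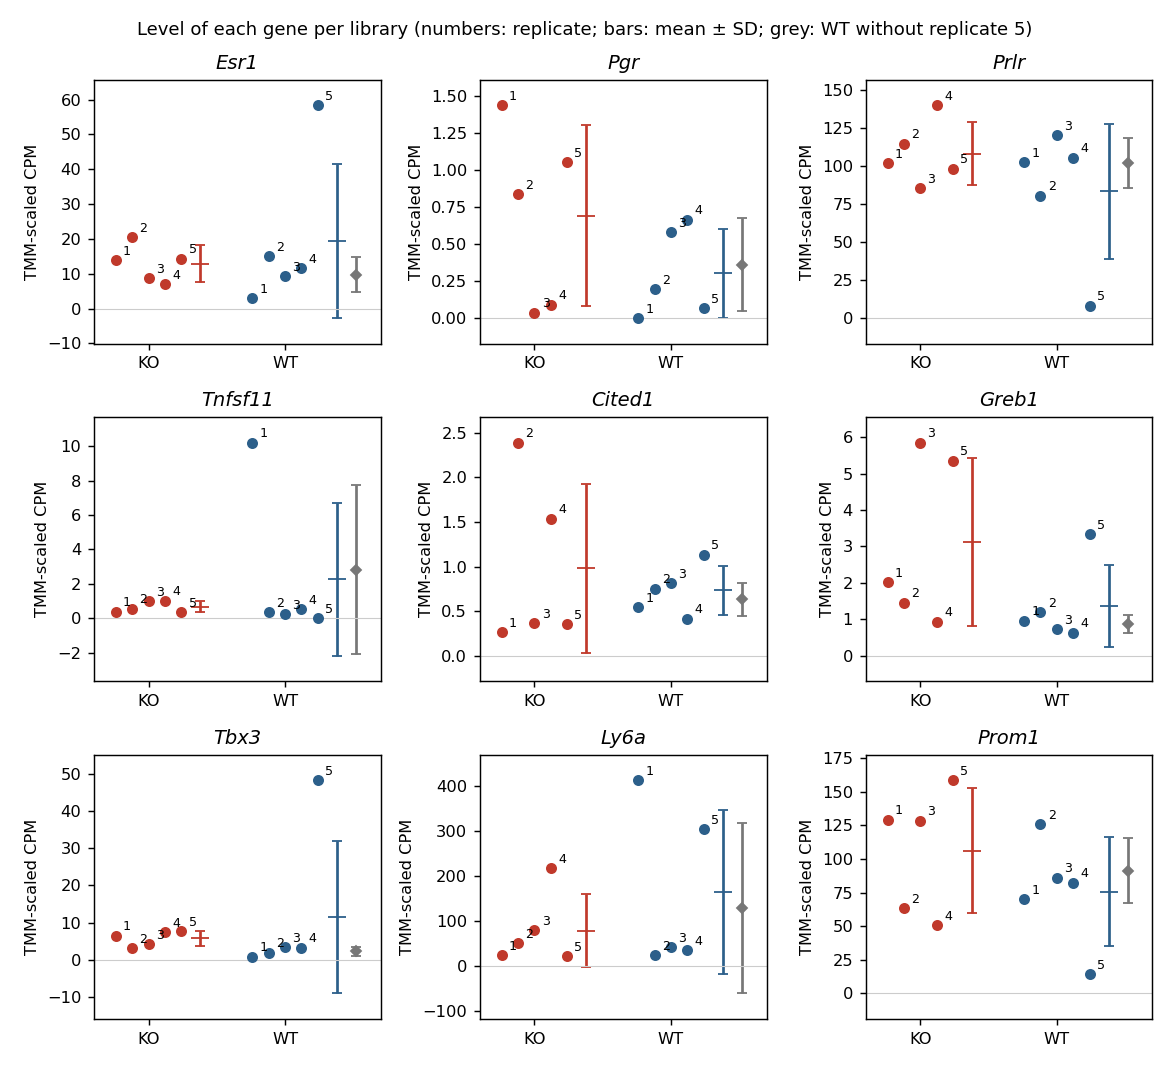
TMM-scaled CPM of each hormone-sensing gene in each KO (red, left) and WT (blue, right) library, numbered by replicate, with the group mean ± SD beside the points and, in grey, the WT mean ± SD without replicate 5. WT replicate 5 is highest for Esr1 and Tbx3 and lowest for Prlr and Prom1, and WT replicate 1 is highest for Tnfsf11 and Ly6a.

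How far these genes follow the tissue profile of the outlying libraries was counted against all genes. WT replicate 5 was above each of the other 9 libraries for 2 of the 9 genes (Esr1 and Tbx3), where it was for 32.3% of all genes tested. It was below each of them for 3 of the 9 (Prlr, Tnfsf11 and Prom1), where it was for 36.5% of all genes. Among the 9 libraries without it, WT replicate 1 was the highest for 2 of the 9 genes (Tnfsf11 and Ly6a) and the lowest for 3 (Esr1, Pgr and Tbx3), where it was for 14.8% and 17.9% of all genes. Counts this small do not set the 9 genes apart from the rest.

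The 9 genes were also set against luminal content, as the log2 ratio of their counts plus 0.5 to the summed counts of the 10 luminal markers, without WT replicate 5. Libraries that share a leading number were counted as separate samples in the test. Tbx3 had 6.51 to 17.5 counts per 10000 luminal counts in KO libraries, against 1.42 to 6.69 in WT replicates 1 to 4, a difference of 1.42 in mean log2 ratio (-9.90 in KO against -11.32 in WT replicates 1 to 4, 2-sided exact permutation p = 0.0317, unadjusted over 9 tests, where 5 against 4 libraries cannot go below 0.0159). Its p was above 0.05 in 7 of the 9 repeats that left out a further library, with differences from 0.94 (without WT replicate 1) to 1.68 (without WT replicate 3). In these repeats only groups without overlap could pass, so this count cannot tell how stable the difference is. Greb1 had 1.23 to 12.1 counts per 10000 in KO libraries, against 1.17 to 2.58 in WT replicates 1 to 4, a difference of 1.499 (exact permutation p = 0.0952). Esr1 differed by 0.53 (exact permutation p = 0.444) and Prlr by 0.07 (exact permutation p = 0.698). For the other 5 genes the exact permutation p ran from 0.603 for Pgr to 0.889 for Cited1. WT replicate 5 had 4608 Esr1 counts and 23949 Ly6a counts per 10000 luminal counts and entered no test.

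**Figure D5:**
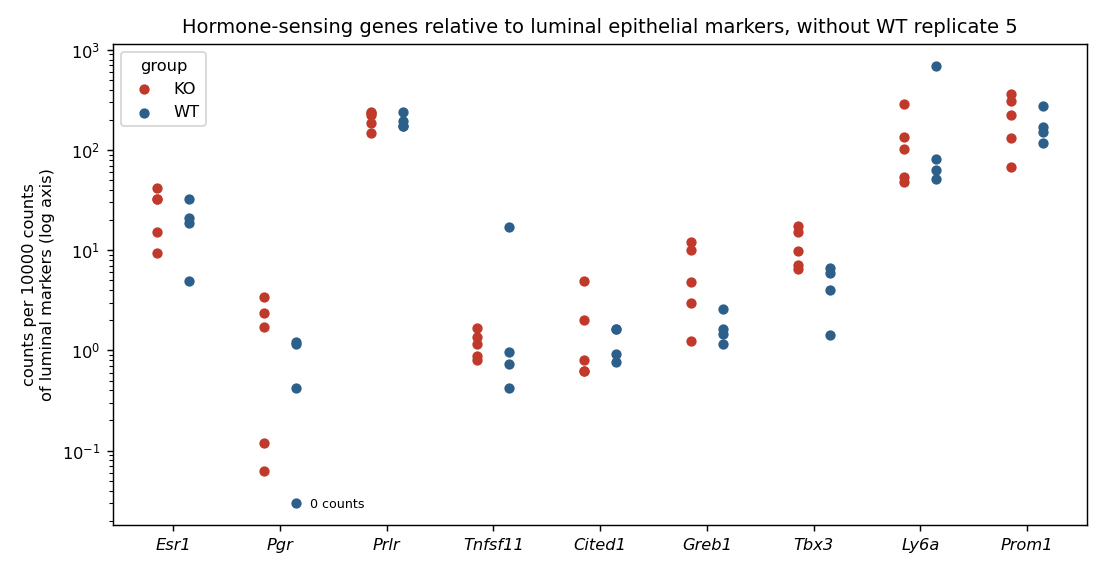
Counts of each hormone-sensing gene per 10000 counts of the 10 luminal markers in each library (log axis), KO red and left, WT blue and right, without WT replicate 5; a library with 0 counts is drawn at 0.03. Tbx3 lies at 6.51 to 17.5 in KO and 1.42 to 6.69 in WT libraries, and for the other 8 genes the groups overlap as well.

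Around the 9 genes, 6 lists of hormone pathway genes held no gene called by edgeR in either comparison. The genes named from them are among the 4 with the smallest edgeR p of each list without WT replicate 5, and of these DESeq2 called Ghr, Hsd11b1 and Ncor1 and limma-voom called Ghr and Ncor1 on those 9 libraries. Of the other nuclear hormone receptors, 19 of 21 were tested, with 14 positive and 5 negative log2 fold changes (median 0.17, against 0.03 for all genes) and 4 higher and 0 lower at an unadjusted p under 0.05, against 5.74% and 5.85% of all genes. Including WT replicate 5 the split turned round, with 7 positive and 12 negative (median -0.25, against -0.06 for all genes) and 1 higher at that p, against 2.56% of all genes. Thra, a thyroid hormone receptor, stood at 35.2 ± 11.9 CPM in KO and 19.99 ± 4.21 CPM in WT replicates 1 to 4 (SD, n = 5 and 4), with no overlap between them (0.83 ± 0.25 on the log2 scale). WT replicate 5 was the highest library at 95.7 CPM, and with it the groups overlapped and the log2 fold change was 0.0034 ± 0.51 (edgeR unadjusted p = 0.995). Rara, a retinoic acid receptor, stood at 59.1 ± 13.7 CPM in KO and 44.2 ± 7.41 CPM in WT replicates 1 to 4 (0.43 ± 0.18, and 0.49 ± 0.19 with WT replicate 5). Rxrg, a retinoid X receptor of muscle, stood at 0.464 ± 0.283 CPM in KO and 0.0912 ± 0.116 CPM in WT replicates 1 to 4, a log2 fold change of 2.24 ± 0.82. These levels are near the floor, at 0 to 0.899 CPM over the 9 libraries, so the estimate rests on few counts. Rxrg is among the 4 receptors higher at an unadjusted p under 0.05, and it reached the mean of 1 CPM needed for naming only through WT replicate 5. It was at 53.7 CPM in WT replicate 5, with which the log2 fold change was -4.52 ± 2.08.

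Of 16 coregulators and pioneer factors of steroid receptors, all tested, 11 were positive and 5 negative (median 0.11), with 2 at an unadjusted p under 0.05 in each direction. Over all 10 libraries 12 were positive and 4 negative (median 0.10), with 0 at that p. Ncor1, a corepressor of nuclear receptors, stood at 266 ± 22.4 CPM in KO and 216 ± 15.5 CPM in WT replicates 1 to 4, with every KO library above every one of these WT libraries, and a log2 fold change of 0.32 ± 0.09. Ncoa1, a coactivator, stood at 68.9 ± 13.3 CPM in KO and 52.3 ± 11.2 CPM in WT replicates 1 to 4 (0.42 ± 0.17). Tle3, a corepressor, stood at 120 ± 23.1 CPM in KO and 156 ± 22.6 CPM in WT replicates 1 to 4, with every KO library below (-0.36 ± 0.16). Tfap2c, a luminal transcription factor, stood at 135 ± 32.2 CPM in KO and 182 ± 25.0 CPM in WT replicates 1 to 4 (-0.42 ± 0.18). Ncor1 passed the adjusted threshold with DESeq2 (adjusted p = 0.0499) and limma-voom (adjusted p = 0.0482) without WT replicate 5. With that library the edgeR log2 fold changes were 0.26 ± 0.12 for Ncor1, 0.36 ± 0.17 for Ncoa1, -0.21 ± 0.24 for Tle3 and -0.12 ± 0.74 for Tfap2c, and every one of these groups overlapped.

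Of 14 genes of prolactin and growth hormone signalling, 13 were tested, with 6 positive and 7 negative log2 fold changes (median -0.03), and 5 positive and 8 negative including WT replicate 5 (median -0.14). Prl, the gene of prolactin itself, had 0 counts in all libraries. Ghr, the growth hormone receptor and the closest relative of Prlr, stood at 151, 117, 96.8, 94.1 and 151 CPM in KO replicates 1 to 5, against 80.5, 68.5, 61.5, 59.1 and 446 CPM in WT replicates 1 to 5. Without WT replicate 5 every KO library was above every WT library, with a log2 fold change of 0.87 ± 0.18 that edgeR did not call (adjusted p = 0.220). DESeq2 called it (adjusted p = 0.00264), as did limma-voom run with quality weights for each library (adjusted p = 0.0197). Including WT replicate 5 it was -0.23 (edgeR unadjusted p = 0.703). Ghr is also made by adipocytes and fibroblasts, whose markers were all positive in the same fit, and their part was not tested. Socs3, a feedback inhibitor of cytokine receptors, had a log2 fold change of 0.61 ± 0.33, and Stat5a, a STAT of the prolactin receptor, of -0.26 ± 0.24. They were 0.61 ± 0.31 for Socs3 and -0.11 ± 0.30 for Stat5a with WT replicate 5. Socs2, another STAT5 target, reached 356 CPM in WT replicate 1, against 61.8 to 123 CPM in the other 8 libraries.

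All 11 genes of RANK signalling were tested, with 5 positive and 6 negative log2 fold changes (median -0.06), and 6 positive and 5 negative including WT replicate 5 (median 0.03). Ccnd1, cyclin D1, stood at 92.0 ± 17.3 CPM in KO and 131 ± 17.3 CPM in WT replicates 1 to 4, or -0.50 ± 0.15 on the log2 scale (edgeR adjusted p = 0.309). Tnfrsf11a had a log2 fold change of -0.42 ± 0.21, Traf2 of -0.28 ± 0.18 and Traf6 of 0.24 ± 0.17, the last 2 being adaptors of the RANK receptor family. Including WT replicate 5 the values were -0.23 ± 0.48 for Ccnd1, -0.15 ± 0.50 for Tnfrsf11a, -0.18 ± 0.22 for Traf2 and 0.32 ± 0.20 for Traf6. WT replicate 1 was above the other 8 libraries for 6 of these 11 genes, where it was for 14.8% of all genes. It was so for 5 of the 14 genes of prolactin and growth hormone signalling too. Among WT replicates 1 to 4 it was the lowest for Ccnd1 (118 CPM) and Traf6 (40.1 CPM).

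Of 21 hormone-induced paracrine factors and targets, 17 were tested, with 8 positive and 9 negative log2 fold changes (median -0.03). Over all 10 libraries 7 were positive and 10 negative, with a median of -0.52, against -0.06 for all genes. Without WT replicate 5, 2 were higher (Per1 and Fkbp5) and 2 lower (Myb and Adamts18) at an edgeR unadjusted p under 0.05, against 5.74% and 5.85% of all genes. With it 2 were higher and 0 lower, against 2.56% and 4.44% of all genes. Fkbp5, a chaperone partner of steroid receptors, stood at 111, 130, 488, 319 and 119 CPM in KO replicates 1 to 5, against 163, 100, 66.5, 68.3 and 123 CPM in WT replicates 1 to 5. Its 2 highest libraries, KO replicates 3 and 4, share a leading number and had almost no Pgr. Per1, a clock gene induced by glucocorticoids, stood at 157 ± 60.8 CPM in KO and 85.7 ± 26.8 CPM in WT replicates 1 to 4. Myb, an oestrogen target in human breast cancer cells, stood at 4.81 ± 2.26 CPM in KO and 8.39 ± 1.26 CPM in WT replicates 1 to 4, with no overlap between these libraries (-0.78 ± 0.33). Adamts18, a matrix protease, stood at 2.49 ± 1.63 CPM in KO and 6.50 ± 3.73 CPM in WT replicates 1 to 4 (-1.36 ± 0.60). Including WT replicate 5 the log2 fold changes were 1.16 ± 0.47 for Fkbp5, 0.93 ± 0.30 for Per1, -0.52 ± 0.54 for Myb and -1.17 ± 0.63 for Adamts18, against 1.25 ± 0.51 for Fkbp5 and 0.90 ± 0.32 for Per1 without it, and the groups overlapped for Myb too.

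Of 16 genes of steroid synthesis and breakdown, 15 matched by symbol and 11 were tested, with 9 positive and 2 negative log2 fold changes (median 0.04). Over all 10 libraries 5 were positive and 6 negative, with a median of -0.21. Hsd11b1, which regenerates active glucocorticoid, stood at 9.46, 46.8, 23.99, 50.9 and 8.57 CPM in KO replicates 1 to 5, against 11.2, 4.496, 8.11, 5.41 and 223 CPM in WT replicates 1 to 5. Its log2 fold change without WT replicate 5 was 1.95 ± 0.59 (edgeR adjusted p = 0.317, DESeq2 adjusted p = 0.0239). With that library, the highest at 223 CPM, the sign turned to -0.85 ± 1.146 (edgeR adjusted p = 0.823). Hsd11b1 is an adipocyte enzyme too, and its 3 highest libraries, WT replicate 5 and KO replicates 4 and 2, were the 3 highest in summed adipocyte markers. The part of adipocytes in Hsd11b1 was not tested. Srd5a1, a steroid reductase, stood at 15.6 ± 3.06 CPM in KO and 21.8 ± 3.50 CPM in WT replicates 1 to 4 (-0.46 ± 0.18). Hsd17b4 and Hsd17b2, both 17-beta-hydroxysteroid dehydrogenases, had log2 fold changes of 0.17 ± 0.10 and -1.16 ± 0.92. All 10 libraries together gave -0.21 ± 0.46 for Srd5a1, -0.26 ± 0.30 for Hsd17b4 and -0.87 ± 1.12 for Hsd17b2.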

How the data were processed

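The authors deposited raw counts per Ensembl gene for all 10 libraries in 1 table. Per the submitters' processing notes, FastQC, STAR, featureCounts and DESeq2 were used with build GRCm39, and their versions and settings are not given in the sources used. From these counts, genes passing filterByExpr were fitted with edgeR 4.0.16 in R 4.3.3 (TMM scaling, robust quasi-likelihood F-test, no covariates, Benjamini-Hochberg adjustment over all genes tested, threshold 0.05), once with all 10 libraries and once without WT replicate 5, refiltered and rescaled. DESeq2 1.42.0 and limma 3.58.1 served as alternatives, and the fitting step was tested on simulated counts. Levels are CPM with the TMM factors of all 10 libraries. No column lacked a sample. Replicates were numbered in accession order, and even the closest pair within a group had a chi-square of 20.8 for each degree of freedom. Floors of 3 counts cover counting error only. The 9 genes and the 20 gene lists (209 of 211 entries matched) were chosen with earlier results of these data known. Named are Rhbdd1, the 9 genes, up to 4 genes per pathway list by smallest p at a mean of 1 CPM or more, and the 5 genes most like Esr1 and Pgr (Gm, Rik and pseudogene names left out). Means for this rule were taken over all 10 libraries, and Rxrg and Tbx5 reached 1 CPM only through WT replicate 5. Of the genes this rule names, 1 is not reported here. Gene lengths and overlaps come from a GENCODE annotation of GRCm38, used for no count coordinates. The ratio to luminal markers was tested with a 2-sided exact permutation test.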

Additional observations from a re-analysis of the deposited data

Results flagged for a closer look

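In several WT comparisons 1 library lay far from the others of its group, judged by its gap to the nearest library over the range of the group; chance gives about 1 such library in 20 groups. WT replicate 5 was far above the other 4 WT libraries for Esr1 (58.4 CPM, next 14.9 CPM), Tbx3 (48.2 CPM, next 3.37 CPM) and Greb1 (3.34 CPM, next 1.19 CPM). WT replicate 1 was far above the others for Tnfsf11 at 10.2 CPM (next 0.527 CPM), both with and without WT replicate 5. It was also far above the other 3 WT libraries for Ly6a at 411 CPM (next 41.1 CPM) once WT replicate 5 was left out. No KO library was set apart in this way for any of the 9 genes. The part of tissue composition in these values was not tested.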

How the results depend on the processing

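Settings were changed 1 at a time. With all 10 libraries edgeR called 0 genes, DESeq2 54, limma-voom with quality weights 17, and edgeR 0 to 2 when each library was left out in turn. Without WT replicate 5 it called 2 genes, DESeq2 463 and limma-voom 142, edgeR on sums per leading number 0, and 0 to 1 when a further library was left out. Of 375 settings for the 9 genes, 34 turned the sign and 1 made a call (Greb1, DESeq2 without WT replicate 5). No cause was tested. With all 10 libraries, limma-voom turned Esr1 (0.41), Prlr (-0.0191), Tnfsf11 (0.27), Cited1 (-0.22) and Tbx3 (0.98). Without WT replicate 5 it turned Prlr (-0.0358), Tnfsf11 (0.23), Cited1 (-0.20), Socs2 (0.30), Ly6c1 (-0.29), Ly6e (0.0877) and Tbx15 (0.0269). Leaving out 1 library in turn turned the sign, all 10 libraries included otherwise, for Cited1 (-0.20 to 0.68), Esr1 (-0.86 to 0.43), Tbx3 (-1.28 to 1.33) and Tnfsf11 (-2.08 to 1.17). Without WT replicate 5, leaving out a further library did so for Cited1 (-0.0014 to 0.89), Ly6a (-1.55 to 1.24), Ly6c1 (-0.0035 to 0.64), Ly6d (-0.53 to 0.42), Ly6e (-0.35 to 0.34), Ly6k (-1.10 to 1.22), Prlr (-0.015 to 0.19), Socs2 (-0.78 to 0.48), Tbx15 (-1.64 to 0.28) and Tnfsf11 (-2.46 to 0.88), in the ratio to luminal markers for Cited1 (-0.36 to 0.37), Esr1 (-0.026 to 0.87), Ly6a (-0.60 to 0.65), Pgr (-0.27 to 1.73), Prom1 (-0.12 to 0.48) and Tnfsf11 (-1.02 to 0.74). Single values on the other side of 0 from the full comparison were 0.0903, 0.101 and 0.42 for Ly6d, -0.0068 for Prlr, and, in the ratio, 0.0115 and 0.053 for Ly6a, -0.0624 and -0.0552 for Prom1 and -0.0441 and -0.0776 for Cited1. Leaving out WT replicate 1 turned Tnfsf11, Ly6a, Socs2, Ly6e and Tbx15 without WT replicate 5. Adding WT replicate 5 to the ratio to luminal markers gave -1.11 for Esr1, -0.28 for Prlr, -1.13 for Cited1, -0.57 for Tbx3 and -0.43 for Prom1. It also left 0 genes under an exact p of 0.05, against 1 (Tbx3) without it and 0 to 1 with a further library left out, where Greb1 passed once (exact p = 0.0286, without KO replicate 4). With a further library left out, only groups without overlap can pass this exact test. No paired analysis was possible, as the labels give no pairing of KO with WT tumours and no leading number occurs in both groups. Low counts limit Pgr, Tnfsf11, Cited1, Greb1 and Rxrg.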

Other observations

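The relatives of Ly6a and Tbx3 held no gene called by edgeR in either comparison. Of 10 Ly6 family genes 9 matched by symbol and 4 were tested. Ly6e, the most abundant of them, stood at 2217, 2405, 2399.6, 3050.3 and 2126 CPM in KO replicates 1 to 5, against 4996, 1405, 2292, 2129 and 483 CPM in WT replicates 1 to 5, so WT replicate 1 was the highest library for Ly6e as it was for Ly6a. WT replicate 5, high in Ly6a, was the lowest in Ly6e. Ly6c1 was at 239.7 CPM in WT replicate 5, against 6.22 to 38.4 CPM in the other 9 libraries. Ly6d stood at 15.8 ± 10.5 CPM in KO and 16.4 ± 10.9 CPM in WT replicates 1 to 4 (SD, n = 5 and 4), and Ly6k reached 6.38 CPM in KO replicate 5, against at most 1.76 CPM in the other 9 libraries.

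Of 11 T-box genes 7 were tested. Tbx15 was at 306 and 345 CPM in WT replicates 1 and 5, against 16.1 to 101 CPM in the KO libraries and 21.6 to 50.1 CPM in WT replicates 2 to 4. Tbx5 and Tbx18 were highest in WT replicate 5, at 8.07 and 13.4 CPM, as Tbx3 was. Mga stood at 59.3 ± 4.57 CPM in KO and 67.2 ± 4.27 CPM in WT replicates 1 to 4 (SD, n = 5 and 4).

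Of the other marker lists, the summed luminal progenitor markers were 802 to 1602 CPM in KO libraries and 853 to 1257 CPM in WT replicates 1 to 4. Basal markers were at 184 to 366 CPM in KO libraries and 188 to 787 CPM in WT replicates 1 to 4. Macrophage markers were at 262 to 463 CPM in KO libraries and 197 to 448 CPM in WT replicates 1 to 4, and B cell markers at 0.297 to 0.904 CPM in KO libraries and 0.527 to 1.06 CPM in WT replicates 1 to 4. In WT replicate 5 these sums were 115 CPM (luminal progenitor), 479 CPM (basal), 1068 CPM (macrophage) and 1.27 CPM (B cell).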
